A study of Mus musculus with 13 samples.

Results

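Cadherins, contactins and contactin-associated proteins are adhesion molecules of the cell surface, and 36 genes of these families (23 cadherins, 6 contactins and 7 contactin-associated proteins) were found among the 35972 genes of the count table by their symbols. The gene name table gave the same family names for all 36 identifiers. They were followed in 10 RNA libraries of mouse neocortex, from a study of the genes regulated by the forebrain transcription factor Fezf2, which binds DNA through zinc fingers. Cells of CD-1® IGS mice were electroporated in utero at E16.5 (the embryonic day) and sorted by fluorescence at postnatal day 3. There were 5 libraries of cells given Fezf2 and GFP and 3 of cells given GFP alone. The other 2 libraries were of newborn (P0) C57BL6/J mice and held the whole neocortex: 1 labelled Fezf2 knockout, in which Cre under Emx1 control removed a floxed allele from progenitors, and 1 labelled wild type. Whether the wild-type animal carried Cre or the floxed allele, and which promoter drove the electroporated plasmids are not given in the sources used here. Nothing in the labels says that replicates of sorted cells came from separate litters or pools, so p-values measure only the spread between these libraries, which may be technical.

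Classical cadherins join like cells through calcium-dependent contacts between identical or related molecules, and their tails are tied to actin by catenins. In the cortex N-cadherin (Cdh2) holds the radial glial scaffold and the adherens junctions of the ventricular surface together, and type II cadherins are known for patterned expression in cortical areas, layers and circuits. Contactins are immunoglobulin-type proteins held in the membrane by a lipid anchor and act on axons with partners such as L1-type molecules and receptor phosphatases. Contactin-associated proteins are neurexin-like transmembrane proteins of axons and synapses.

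The regions around the transcription start sites of 4 members are shown first: Cdh12, Cntn2 and Cdh24, which had the 3 smallest p-values in sorted cells, and Cdh10, the chromosomal neighbour of Cdh12. Each sequence runs from 250 bases before to 50 bases after the start in RefSeq (build GRCm38.p6), and capitals mark CG dinucleotides. The Cdh12 window is chr15:21111202-21111501, plus strand. The Cdh10 window is chr15:18820079-18820378, plus strand. The Cntn2 window is chr1:132542891-132543190, minus strand. The Cdh24 window is chr14:54641315-54641614, minus strand.
Cdh12: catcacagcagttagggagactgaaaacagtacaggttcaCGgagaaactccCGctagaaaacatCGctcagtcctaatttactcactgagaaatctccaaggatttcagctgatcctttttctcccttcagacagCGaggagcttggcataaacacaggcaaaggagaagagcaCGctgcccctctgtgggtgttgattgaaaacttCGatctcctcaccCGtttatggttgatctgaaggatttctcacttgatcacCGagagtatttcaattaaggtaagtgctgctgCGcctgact
Cdh10: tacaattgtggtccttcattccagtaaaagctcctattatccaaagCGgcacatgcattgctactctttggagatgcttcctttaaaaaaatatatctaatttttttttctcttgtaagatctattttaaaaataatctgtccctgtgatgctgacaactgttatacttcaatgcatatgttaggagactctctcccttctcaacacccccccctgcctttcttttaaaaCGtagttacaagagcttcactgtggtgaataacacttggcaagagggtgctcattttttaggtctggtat
Cntn2: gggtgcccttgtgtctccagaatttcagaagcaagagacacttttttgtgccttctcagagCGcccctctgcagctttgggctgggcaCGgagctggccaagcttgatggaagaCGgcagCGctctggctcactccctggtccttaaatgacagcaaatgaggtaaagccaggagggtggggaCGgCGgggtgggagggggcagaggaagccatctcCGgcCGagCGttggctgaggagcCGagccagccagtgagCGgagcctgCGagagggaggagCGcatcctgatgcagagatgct
Cdh24: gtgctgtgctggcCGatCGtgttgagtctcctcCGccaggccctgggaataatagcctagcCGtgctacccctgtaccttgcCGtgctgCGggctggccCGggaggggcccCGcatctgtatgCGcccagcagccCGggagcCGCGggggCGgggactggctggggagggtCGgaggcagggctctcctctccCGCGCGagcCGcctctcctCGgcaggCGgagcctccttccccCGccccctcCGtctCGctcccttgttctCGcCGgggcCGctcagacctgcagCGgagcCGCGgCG

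These windows held 9 CG dinucleotides for Cdh12, 2 for Cdh10, 13 for Cntn2 and 30 for Cdh24. Entries were found for 22 of the 36 members, and the first entry of each gene was used. The number of CG dinucleotides ran from 0 (Cntn3) to 38 (Cdh22), with a median of 10 against 7 over 27025 genes of all kinds, and 11 of the 22 had at least 10, as did 43.9% of all genes. The TATA motif TATAAA, searched on both strands, occurred in 1 member, Cntnap3 (4.55% of the members and 14.2% of all genes). The E-box CAGCTG, which reads the same on both strands, occurred in 5 members (22.7% against 16.1% of all genes), Cdh12 among them. A match of letters describes the window and is no binding site.

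Sorted-cell libraries held 3245932 to 5801839 counts and the neocortex libraries 17856211 (labelled knockout) and 11818437 (wild type), and the 36 members held a small part of them, led by Cntn2 with 13923 and 8712 counts in neocortex. Levels are CPM, counts scaled by TMM library size to a common total. The share of mitochondrially encoded genes was 21.0% to 27.1% in sorted-cell libraries and 0 in neocortex. RNA of sorted cells was amplified (NuGEN Ovation V2), whereas neocortex libraries were made with a TruSeq mRNA kit. Sorted cells carried RNA of several cell types. Summed CPM of 7 markers of cortical glutamatergic neurons ran from 1278 to 3482 in the Fezf2 libraries and from 2652 to 2802 with GFP, and those of 7 astrocyte markers from 511 to 2787 and from 649 to 892, with no gene of either list at 0 in all libraries. Choroid plexus markers summed to at most 2.64 CPM in any sorted-cell library, with Clic6 at 0. Fezf2 itself stood at 124 ± 28.7 CPM in Fezf2 cells (SD, n = 5) and 8.07 ± 4.28 with GFP (SD, n = 3; log2 fold change 3.91, edgeR adjusted p = 6.27e-05). In bulk RNA, fewer cells of a type and less RNA per cell cannot be told apart.

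The level of each member was compared with the others per kb of gene length, and by group mean Cntn2 and Cdh2 led in every group. Cntn2, also called TAG-1, a contactin of outgrowing axons, stood at 77.0 ± 12.6 CPM per kb in GFP cells (SD, n = 3), at 48.4 ± 20.5 in Fezf2 cells (SD, n = 5), at 81.4 in the library labelled knockout and at 77.0 in wild type. Cdh2 followed at 58.7 ± 3.87 in GFP cells, 55.8 ± 14.7 in Fezf2 cells, 38.4 in the library labelled knockout and 47.5 in wild type. In Fezf2 cells the mean of Cdh2 thus lay above that of Cntn2, within the spread of either. Together Cntn2 and Cdh2 made up 44.6% to 64.3% of the members' summed CPM in sorted cells.

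Next in GFP cells came Cntn1, a contactin of axons and glia, at 21.3 ± 0.895 CPM per kb (SD, n = 3), Cdh4 (R-cadherin) at 18.6 ± 4.90, Cdh11 at 17.2 ± 2.52, Cdh10 at 14.8 ± 0.925, Cdh12 at 12.9 ± 0.688, Cdh8 at 9.15 ± 0.872 and Cdh20 at 7.05 ± 1.35. Of the 29 pairs of neighbours in this order, the 3 GFP libraries separated 5 without overlap: Cntn2 from Cdh2, Cdh2 from Cntn1, Cdh10 from Cdh12, Cdh12 from Cdh8 and Cdh6 from Cntn3. The other neighbours did not differ beyond their spread. Cntnap2, the contactin-associated protein that gathers potassium channels beside nodes of Ranvier, led its family at 4.84 ± 0.904.

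**Figure D1:**
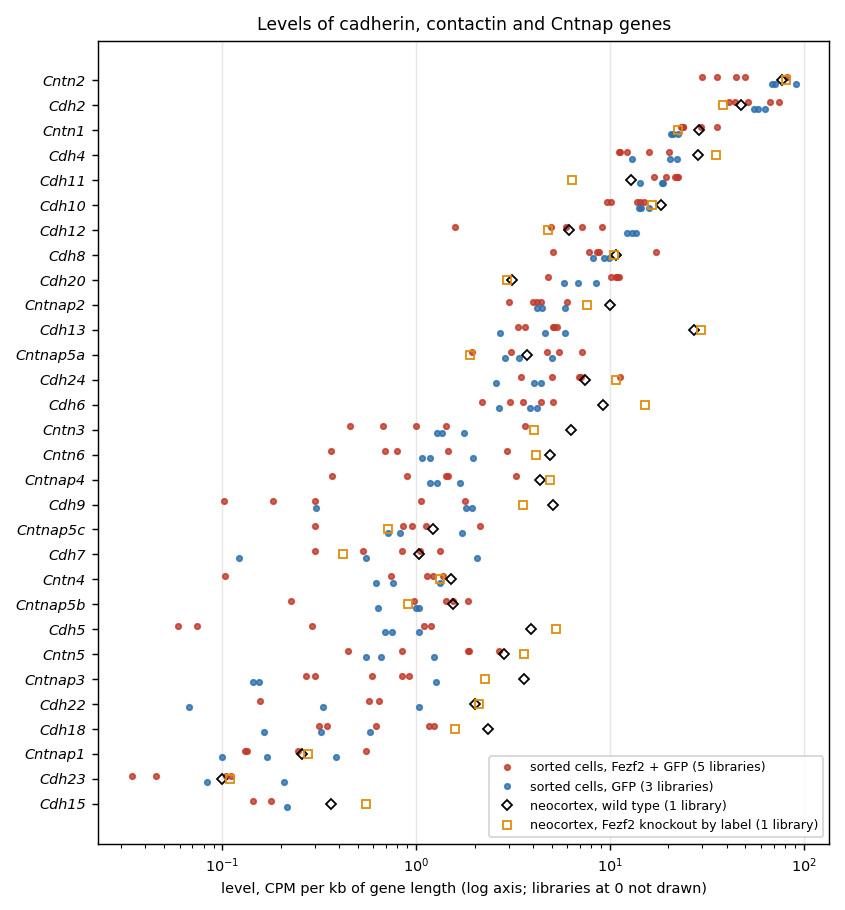
Level of 30 members in CPM per kb of gene length on a log axis, ordered by the mean of the GFP libraries; points are libraries, and libraries at 0 are not drawn. By group mean Cntn2 and Cdh2 lie highest in all 4 groups, though Cntn1 lies above Cntn2 in Fezf2 replicate 4, and Cdh13 lies far higher in neocortex (27.2 in wild type) than in GFP cells (4.41).

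Sorted cells and neocortex differed in strain, age, purity and library kit, so their levels are only set side by side. The largest gap among the abundant members was in Cdh13, the cadherin without a cytoplasmic tail, at 4.41 ± 1.59 CPM per kb in GFP cells (SD, n = 3) and 27.2 in wild-type neocortex. Cdh5, the cadherin of endothelial junctions, stood at 0.823 ± 0.183 against 3.91, beside endothelial and pericyte markers that summed to 43.3 to 59.7 CPM in GFP cells and 171 in wild-type neocortex. Cdh12 and Cdh20 went the other way, at 12.9 against 6.13 and at 7.05 ± 1.35 against 3.13. For 6 members no length could be taken, because their counts in neocortex were below 10: Cdh1, Cdh3, Cdh16, Cdh17, Cdh19 and Cdh26.

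The first comparison asked which members changed in sorted cells given Fezf2. No member passed: edgeR's quasi-likelihood test gave 0 of 26 tested members at a Benjamini-Hochberg adjusted p below 0.05, where 0.0145% of the 13754 genes tested passed (0.00727% higher and 0.00727% lower). DESeq2 also called 0 members and 0.0228% of its genes. At an unadjusted edgeR p below 0.05 there were 4 members, Cdh24 and Cntn1 higher and Cdh12 and Cntn2 lower, against 6.55% of all genes (4.31% higher, 2.24% lower). The groups did not overlap for 2 of 26, Cntn1 higher and Cdh12 lower, against 4.71% of all genes (2.25% higher, 2.46% lower). Estimates lay above 0 for 14 members and below 0 for 12, and the median estimate on the log2 scale was 0.02, as it was over all genes tested.

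Cdh12, a type II cadherin also called brain cadherin, had the smallest p among the members. Its level was 51.6, 28.2, 40.4, 8.95 and 33.6 CPM in Fezf2 replicates 1 to 5 and 77.0, 69.2 and 73.1 CPM in GFP replicates 1 to 3. The GFP libraries lay close together, and each Fezf2 library lay below each of them. The log2 fold change was −1.17 (SE 0.34, edgeR adjusted p = 0.719). With no low-count filter edgeR gave −1.18 and an adjusted p of 0.000229, in a fit that called 0.444% of its genes, and DESeq2 did not call Cdh12. Without 1 library at a time the estimate ran from −1.38 to −0.94, and its edgeR adjusted p was at least 0.225.

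Cntn2 had the next smallest p. It stood at 788, 478, 426, 285 and 342 CPM in Fezf2 replicates 1 to 5 and at 656, 679 and 875 CPM in the GFP libraries. Replicates 2 to 5 lay below all GFP libraries, and replicate 1 lay among them. The log2 fold change was −0.67 (SE 0.25, edgeR adjusted p = 0.729). Without the low-count filter edgeR called it (−0.68, adjusted p = 0.0122), in a fit that called 0.444% of its genes. edgeR also called Cntn2 without Fezf2 replicates 1, 2 and 4, the 3 libraries of lowest mean correlation with the others (−0.94, adjusted p = 0.0308). That setting was chosen after the data were seen, and it drops the Fezf2 libraries of highest (replicate 1) and lowest (replicate 4) Cntn2. DESeq2 did not call Cntn2 (adjusted p = 0.864). Neither did edgeR without 1 library at a time, as with an adjusted p of 0.103 without Fezf2 replicate 1.

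The glutamatergic markers also differed from library to library. Their sum was 3482, 2175, 2320, 1278 and 1773 CPM in Fezf2 replicates 1 to 5 and 2786, 2802 and 2652 CPM with GFP, and 1 of the 7 markers had a higher estimate in Fezf2 cells. Fezf2 replicate 1 was highest and replicates 5 and 4 were lowest for both the sum and Cntn2, while the order of replicates 2 and 3 differed and, with GFP, replicate 3 had the lowest sum and the highest Cntn2. Their part in the result was not tested. Per 1000 CPM of these markers, Cntn2 stood at 184 to 226 in the Fezf2 libraries and 235 to 330 with GFP, and Cdh12 at 7.01 to 18.9 and 24.7 to 27.6. Such ratios were taken for 7 members after their values had been seen. Among the 7 were the members of smallest p in the same libraries (Cdh12, Cntn2, Cdh24, Cntn1 and Cdh4). The groups did not overlap for 3 of the 7 (Cdh12, Cntn2 and Cdh24), against 6.97% of all genes tested. As the 7 were picked in this way, their count cannot be weighed against that share. Per 1000 CPM of the astrocyte markers, the groups did not overlap for 0 of the 7, against 5.78% of all genes. This count cannot be weighed against its share either. The astrocyte sum itself ran from 511 to 2787 CPM among the Fezf2 libraries, which widens the range of any ratio to it.

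Cdh24, a type II cadherin, had higher values with Fezf2. It stood at 19.5, 30.9, 19.0, 9.53 and 13.7 CPM in Fezf2 replicates 1 to 5 and at 12.1, 11.04 and 7.08 CPM with GFP, with replicate 4 inside the GFP range. The log2 fold change was 0.87 (SE 0.37, edgeR adjusted p = 0.739).

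Cntn1 stood at 220, 226, 225, 339 and 279 CPM in Fezf2 replicates 1 to 5 and at 212, 195 and 200 CPM with GFP. The groups did not overlap, though 3 Fezf2 libraries lay close above the highest GFP library. The log2 fold change was 0.35 (SE 0.16, edgeR adjusted p = 0.758). Astrocyte markers summed to 511, 1897, 862, 2787 and 1928 CPM in the same Fezf2 libraries and 892, 649 and 661 CPM with GFP, and 7 of 7 had higher estimates with Fezf2. Replicate 4 was highest and replicate 1 lowest among the Fezf2 libraries for the sum and for Cntn1. The same held for radial glia markers (5519 and 1789 CPM), of which 8 of 8 had higher estimates with Fezf2. Oligodendrocyte lineage markers were also highest in replicate 4 (1679 CPM) but lowest in replicate 3 (713 CPM), with 8 of 9 estimates higher. The part of any of these cells in the result was not tested. Without Fezf2 replicates 4 and 5 the Cntn1 estimate was 0.14 (edgeR adjusted p = 0.819). This setting was chosen after the data were seen. It leaves out the libraries of highest Cntn1, which lowers the estimate whatever the cause.

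**Figure D2:**
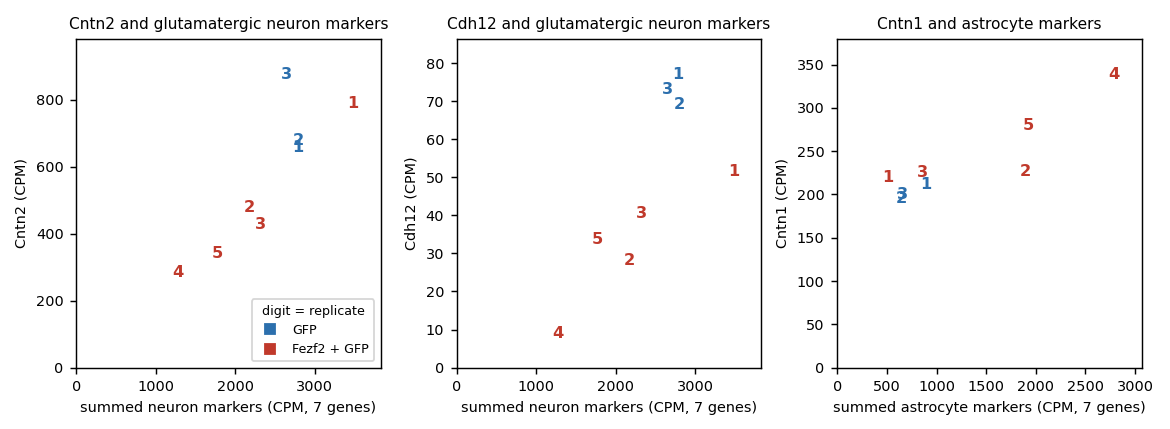
Level of Cntn2 (left) and Cdh12 (middle) against summed glutamatergic neuron markers, and of Cntn1 (right) against summed astrocyte markers, all in CPM; each digit is a library, named by its replicate. Fezf2 replicate 4 has the lowest neuron sum (1278), the lowest Cdh12 (8.95) and the highest astrocyte sum (2787). Cdh12 lies below all GFP libraries in each Fezf2 library, replicate 1 with the highest neuron sum (3482) among them. The part of these cells was not tested.

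Of the classical type I cadherins, Cdh4 and Cdh2 were tested. Cdh4 stood at 146, 80.7, 115, 88.7 and 81.6 CPM with Fezf2, while the GFP libraries held 161, 148 and 94.4 CPM. The groups overlapped (log2 fold change −0.40, SE 0.22, edgeR adjusted p = 0.796). Cdh2 stood at 605, 545, 333, 359 and 416 CPM against 448, 468 and 510 CPM, so that 2 Fezf2 libraries lay above all GFP libraries and 3 below. Its log2 fold change was −0.07 (SE 0.19, edgeR adjusted p = 0.954). The epithelial cadherin Cdh1, the placental cadherin Cdh3 and the muscle cadherin Cdh15 were at 0 to 1.18 CPM in every sorted-cell library and were not tested.

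Among the other type II cadherins the groups overlapped. Cdh20 had 19.2, 44.8, 43.7, 40.7 and 43.1 CPM with Fezf2 and 23.4, 27.6 and 34.2 CPM with GFP. In all, 4 of the Fezf2 libraries thus lay above all GFP libraries and replicate 1 lay below them (log2 fold change 0.44, SE 0.27, edgeR adjusted p = 0.813). Cdh11, a cadherin also of mesenchymal cells, had 93.8, 95.2, 91.2, 82.3 and 71.5 CPM against 78.3, 79.5 and 60.4 CPM (0.25, SE 0.17, edgeR adjusted p = 0.822). Fezf2 replicates 1 to 4 were above all GFP libraries.

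Cdh10 had 34.2, 50.9, 53.6, 36.1 and 48.8 CPM with Fezf2 and 56.4, 51.7 and 50.1 CPM with GFP (log2 fold change −0.24, SE 0.20, edgeR adjusted p = 0.85). Cdh18 and Cdh9 were near the detection limit, with means of 1.62 and 3.92 CPM with GFP. Cdh18 had 5.31, 1.58, 5.64, 1.44 and 2.84 CPM against 2.64, 0.753 and 1.47 CPM, and Cdh9 0.295, 0.528, 3.05, 0.867 and 5.16 against 0.879, 5.27 and 5.60 CPM, so neither separated the groups. Their log2 fold changes were 1.01 (SE 0.72) and −0.93 (SE 0.85), at edgeR adjusted p of 0.828 and 0.86. Cdh8, Cdh6, Cdh7 and Cdh5 had log2 fold changes of 0.05, 0.03, −0.13 and −0.59, at edgeR adjusted p of at least 0.909. The endothelial Cdh5 lay at 0.235 to 4.75 CPM with Fezf2 and 2.76 to 4.13 CPM with GFP. Endothelial and pericyte markers went the other way, summing to 52.2 to 181 CPM with Fezf2 and 43.3 to 59.7 CPM with GFP. Of these markers, 6 of 6 tested had higher estimates with Fezf2, and their part was not tested.

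Cdh8, a cadherin of cortical areas and layers, still varied among Fezf2 libraries, at 134, 68.3, 60.9, 39.6 and 66.4 CPM, against 77.0, 72.5 and 63.7 CPM with GFP. Replicate 1 was thus above, and replicates 3 and 4 below, all GFP libraries. Cdh13, which is among the markers of corticospinal neurons, lay at 37.7 to 59.4 CPM with Fezf2 and 30.4 to 65.7 CPM with GFP (log2 fold change 0.03, SE 0.25, edgeR adjusted p = 0.992). Its Fezf2 range lay inside its GFP range.

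Of the remaining contactins, Cntn5 had 3.83, 12.1, 8.46, 2.02 and 8.52 CPM with Fezf2 and 2.99, 2.51 and 5.60 CPM with GFP (log2 fold change 0.94, SE 0.57, edgeR adjusted p = 0.811). Replicates 2, 3 and 5 lay above all GFP libraries and replicate 4 lay below them. Cntn3, Cntn4 and Cntn6 had log2 fold changes of −0.01, 0.01 and −0.17, at edgeR adjusted p of 0.968 to 0.998. Cntn3 and Cntn6 were both highest in Fezf2 replicate 3, at 19.0 and 19.3 CPM, above all other sorted-cell libraries.

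The contactin-associated proteins gave 6 tested genes, with log2 fold changes from −0.17 (Cntnap2) to 0.44 (Cntnap5b). Cntnap5b had 5.01, 9.50, 7.28, 1.16 and 8.01 CPM with Fezf2 and 5.10, 3.26 and 5.31 CPM with GFP, at an edgeR adjusted p of 0.902. Cntnap5a, Cntnap5b and Cntnap5c are related copies, and as the handling of reads that fit several genes is not stated in the sources, their counts are uncertain. Cntnap1, the member that anchors the axon to myelin loops, was at 0 to 3.24 CPM and was not tested. The other members not tested were Cdh16, Cdh17, Cdh19, Cdh22, Cdh23 and Cdh26, at 0 to 3.83 CPM. All 10 members left out by the filter were at 0 counts in at least 1 sorted-cell library. A count of 0 allows up to 0.528 to 0.885 CPM (3 counts per library, counting error only).

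**Figure D3:**
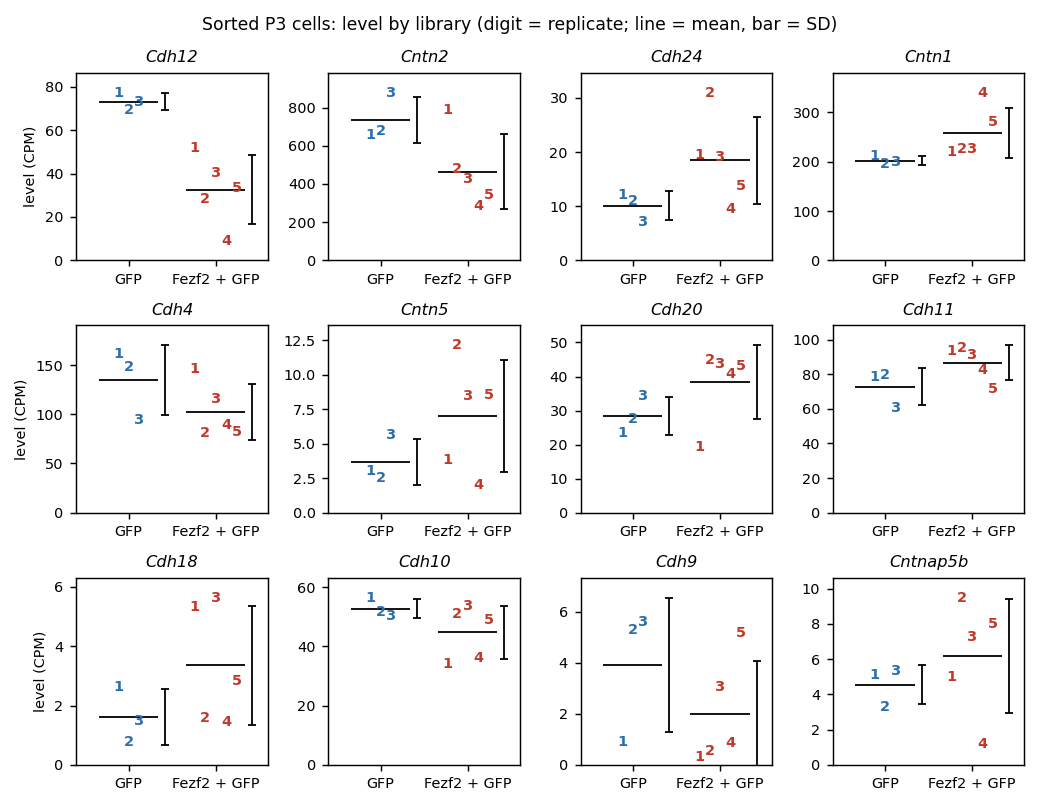
Level in CPM by library for the 12 members of smallest p; digits are replicates, lines are means and bars are SDs. Cdh12 is lower in each Fezf2 library (8.95 to 51.6) than in each GFP library (69.2 to 77.0), whereas the other panels overlap, apart from a narrow gap in Cntn1.

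The Fezf2 libraries differed among themselves more than the GFP libraries did. The coefficient of variation of the 12 members at a mean of at least 20 CPM had a median of 26.9% over the 5 Fezf2 libraries and 15.5% over the 3 GFP libraries, beside 21.4% and 11.99% for the 7036 genes of that level. For the 14 members below 20 CPM the medians were 58.8% and 38.3%, beside 43.0% and 29.1% for all genes of that level. Fezf2 replicate 4 was the lowest Fezf2 library for 10 of the 26 members, as it was for 22.5% of all genes tested, and the highest for 2, Cntn1 and Cntn4, as it was for 23.2% of all genes tested. The summed CPM of all members was 2297, 1829, 1653, 1444 and 1579 in Fezf2 replicates 1 to 5 and 1978, 2006 and 2153 with GFP, with replicates 2 to 5 below all GFP libraries. Cntn2 and Cdh2 together made up 60.7%, 56.0%, 45.9%, 44.6% and 48.0% of this sum in Fezf2 replicates 1 to 5. With GFP they made up 55.8%, 57.2% and 64.3%. The sum was not tested.

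Partners of these families were also examined. Of 16 tested catenins and junction adaptors and 18 tested partners of contactins and Cntnap proteins, 0 and 0 passed in edgeR. At an unadjusted edgeR p below 0.05 there were 2 (2 higher) and 5 (4 higher, 1 lower), again beside 6.55% of all genes (4.31% higher, 2.24% lower), and their median log2 fold changes were 0.06 and 0.22. The scaffold gene Magi1 stood at 78.5 ± 13.1 CPM with Fezf2 (SD, n = 5) and 51.3 ± 8.68 with GFP (SD, n = 3), without overlap (log2 fold change 0.61, SE 0.19, edgeR adjusted p = 0.729). Its relative Magi2 had 215 ± 28.6 against 162 ± 15.2 CPM (0.41, SE 0.15, edgeR adjusted p = 0.729), and the nectin-binding adaptor Afdn 190 ± 29.0 against 236 ± 37.0 CPM (−0.32, SE 0.16, edgeR adjusted p = 0.78). The matrix partners Tnc and Ncan, made largely by glia and progenitors, had 709 ± 164 against 452 ± 113 CPM and 2677 ± 694 against 1889 ± 425 CPM. Ptprg, a receptor phosphatase that binds contactins, had 129 ± 22.4 against 97.3 ± 3.52 CPM. Their log2 fold changes were 0.65, 0.50 and 0.41, each at an edgeR adjusted p of 0.729. The amyloid precursor-like genes, named here after their values were seen to complete the count of 5, were Aplp2, at 201 ± 34.9 against 154 ± 17.6 CPM (0.38, edgeR adjusted p = 0.739), and Aplp1, at 260 ± 50.9 against 330 ± 17.0 CPM (−0.35, edgeR adjusted p = 0.754). Afdn was described as the third of its list by p and did not reach an unadjusted 0.05. Radial glia markers, among them Tnc, summed to 1789 to 5519 CPM with Fezf2 and 2026 to 2793 with GFP, and 8 of 8 had higher estimates, with no gene of the list at 0 in all libraries. Their part was not tested.

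Loss of Fezf2 was compared in neocortex with 1 library on each side, so there was no replicate check and no test. Fezf2 itself stood at 53.5 CPM in the library labelled knockout and 51.4 in wild type, so the label was not borne out by the whole-gene count, which cannot show a partial deletion. Directions below rest on the label. Of the 26 members with at least 5 CPM in either library, 17 had log2 ratios below 0 and 9 above. Over all 11218 genes of that level, 5515 lay below 0 and 5703 above. The members' median was −0.20, beside 0.01 over the 11218 genes. Past a ratio of 1 on the log2 scale in either direction lay 2 members, both lower, Cdh7 and Cdh11, where 2.33% of all genes were past it, 1.32% lower and 1.01% higher. The 95% counting interval lay wholly below 0 for 14 of 26 (53.8%) and above 0 for 7 (26.9%), beside 30.8% and 30.9% of all genes. These exact binomial intervals cover counting error only and not differences between animals.

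Cdh7, a type II cadherin, had 65 counts in the library labelled knockout and 106 in wild type, or 3.64 against 8.97 CPM, a log2 ratio of −1.27 (95% interval −1.77 to −0.84). Cdh11 had 26.9 against 54.1 CPM, a log2 ratio of −1.002 (−1.18 to −0.83). It sat just past the threshold, and Cntnap5a just inside it at −0.97. Meningeal markers, of tissue where Cdh11 is also made, summed to 15.6 and 15.9 CPM over 6 genes, with Col1a2 at 6.22 and 4.57 CPM and Dcn at 2.80 and 5.08 CPM, so that single markers went both ways. The part of these cells was not tested.

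Contactin-associated proteins lay mostly lower in the library labelled knockout, with 4 of 5 below 0 and a median log2 ratio of −0.66. Over all genes 5515 of 11218 lay below 0. Cntnap5a and Cntnap5b, among the 4, are related copies whose counts are uncertain, so they are not separate findings. Cntnap5a had 10.8 against 21.2 CPM (−0.97, 95% interval −1.26 to −0.70). Cntnap5b had 4.65 against 7.95 CPM (−0.76, −1.22 to −0.33), and Cntnap3 11.03 against 17.5 CPM (−0.66, −0.96 to −0.38). Cntnap2 had 54.7 against 72.5 CPM (−0.41, −0.54 to −0.27). The exception was Cntnap4, of inhibitory synapses, at 30.8 against 27.3 CPM (0.17, −0.03 to 0.38). None of the 5 was past a ratio of 1 on the log2 scale.

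Of the 6 contactins 4 lay below 0. Cntn3 had 21.1 against 32.8 CPM (−0.63, 95% interval −0.85 to −0.43) and Cntn1 211 against 273 CPM (−0.37, −0.44 to −0.30). Cntn2, the most abundant member, had 780 against 737 CPM, a log2 ratio of 0.08 (0.04 to 0.12) that rests on 13923 and 8712 counts. Cntn5 lay above 0 at 0.34 (0.06 to 0.64).

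Cadherins lay on both sides. Those with higher values in the library labelled knockout were led by Cdh6, at 40.2 against 24.5 CPM, a log2 ratio of 0.71 (95% interval 0.52 to 0.92). Cdh24 had 29.3 against 20.4 CPM (0.52, 0.30 to 0.75). The endothelial Cdh5 had 21.1 against 15.7 CPM (0.42, 0.17 to 0.69), beside endothelial and pericyte markers at a sum of 220 against 171 CPM, of which 7 of 8 were above 0. Their part was not tested. Cdh4 had 255 against 207 CPM (0.30, 0.23 to 0.37) and Cdh13 330 against 305 CPM (0.11, 0.05 to 0.17).

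Besides Cdh7 and Cdh11, lower values were found for Cdh18, at 7.28 against 10.7 CPM (−0.55, 95% interval −0.93 to −0.20), and for Cdh9, at 10.4 against 14.7 CPM (−0.50, −0.81 to −0.20). Cdh12 had 27.0 against 34.7 CPM (−0.36, −0.55 to −0.17) and Cdh2 311 against 385 CPM (−0.31, −0.36 to −0.25). Intervals that held 0 were those of Cdh8, Cdh20, Cdh22, Cntn4 and Cntnap4.

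Corticothalamic neuron markers summed to 585 CPM in the library labelled knockout and 908 in wild type, with 7 of 7 below 0. Subcerebral neuron markers, Fezf2 among them, summed to 447 and 695 CPM, with 6 of 7 below 0, including Bcl11b at 118 against 260 CPM (−1.14), and striatal neuron markers to 51.4 and 78.4 CPM, where the 4 markers with at least 5 CPM all had ratios below 0. Glutamatergic markers summed to 1680 and 2017 CPM, and interneuron markers to 795 and 769. Of the 7 interneuron markers 5 lay below 0, and the higher sum went with the neuropeptide gene Npy, at 228 against 91.5 CPM. The part of these cells in the members' ratios was not tested. Of the catenins and junction adaptors 9 lay above 0 and 7 below (median 0.04), and of the contactin and Cntnap partners 9 and 9 (median 0.00), with none past the threshold. The largest were Magi2 (68.4 against 109 CPM, −0.67), Jup, the plakoglobin gene (60.6 against 42.9 CPM, 0.50), and Ctnnd2, delta-catenin of neurons (−0.49), and among partners Ank3 (−0.46), which builds the axon initial segment, Ptprg (−0.42) and the L1-type gene Chl1 (−0.40).

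**Figure D4:**
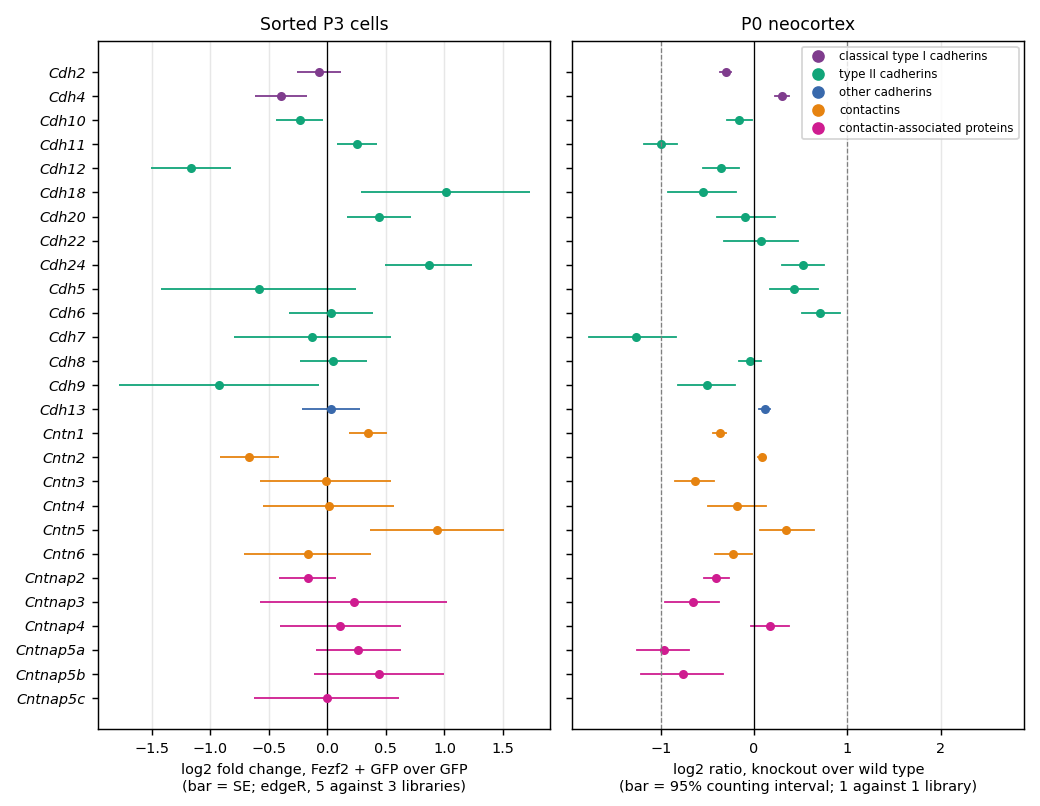
Log2 fold change in sorted cells with its SE (left) and log2 ratio in neocortex with its 95% counting interval (right) for members measured in either, grouped and coloured by role; dashed lines on the right mark a log2 ratio of 1 in either direction. Cdh12 (−1.17) is farthest below 0 in sorted cells, and Cdh7 (−1.27) and Cdh11 (−1.002) are at or past the dashed line in neocortex.

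Many of these genes lie next to each other in the genome, and their values are set side by side. In RefSeq's GRCm38.p6 order, Cdh6, Cdh9, Cdh10, Cdh12 and Cdh18 follow each other on chromosome 15 with no other protein-coding gene between them, apart from 1 between Cdh12 and Cdh18. Their levels in GFP cells were 3.57, 1.35, 14.8, 12.9 and 0.355 CPM per kb in that order. The log2 fold changes with Fezf2 were 0.03, −0.93, −0.24, −1.17 and 1.01, and the neocortex log2 ratios 0.71, −0.50, −0.16, −0.36 and −0.55. On chromosome 8, Cdh8, Cdh11 and Cdh5 are likewise direct neighbours, at levels of 9.15, 17.2 and 0.823 CPM per kb in GFP cells and neocortex log2 ratios of −0.05, −1.002 and 0.42. No difference between neighbours was tested.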

How the data were processed

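Gene expression was measured by RNA sequencing (single reads of 75 bp per the labels) in 5 Fezf2, 3 GFP and 2 neocortex libraries. Raw counts for each Ensembl gene were deposited by the authors. The submitters' processing notes name STAR 2.4.0e, HTSeq 0.6.1 and the mm9 build, among other tools, without tying each to a step. The annotation and the use of strand are not given there, and reads of overlapping or antisense genes may be shared. RPKM values were deposited by the authors as well. In neocortex they equalled counts over library total and a gene length, which gave the lengths used here for genes with at least 10 counts. For sorted cells they came from another count (median ratio to count-based values 0.254 to 0.456). Peak lists were not used here.

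Sorted cells were analysed with edgeR 4.0.16 in R 4.3.3 (TMM, filterByExpr, robust quasi-likelihood fit and F test, p-values adjusted by Benjamini-Hochberg over 13754 genes, limit 0.05). SEs were back-calculated from the F statistic. Neocortex ratios used a prior count of 2 and a minimum of 5 CPM in either library, with exact binomial 95% intervals (scipy 1.17.1). Alternatives used DESeq2 1.42.0 and limma 3.58.1. The code was tested on simulated data. Values in every library are given for the 12 tested members of smallest p and the 5 of highest level per length, and likewise by ratio in neocortex. For other members values are given by range, with a few shown after they were seen. Members, lists and rules were chosen with earlier results of these data known.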

Additional observations from a re-analysis of the deposited data

Results flagged for a closer look

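Among the 5 Fezf2 libraries, 1 of the 26 tested members had a library far from the others. Cdh20 stood at 19.2 CPM in Fezf2 replicate 1, where the next lowest Fezf2 library had 40.7 CPM, a gap that made up 0.84 of the whole range of the group. Chance flags about 1 in 20 groups in this way, and 6.51% of all genes tested met the same criterion, so a single gene of 26 is not more than the background.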

How the results depend on the processing

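The count of members called in sorted cells was 0 in the analysis reported and in all but 2 of its alternatives: with no low-count filter it was 2 (Cdh12 and Cntn2), and without Fezf2 replicates 1, 2 and 4 it was 1 (Cntn2). Over all genes edgeR called 2, DESeq2 called 6, edgeR with no low-count filter called 117, and a non-robust fit called 1. Leaving out 1 library at a time gave 1 to 2 genes and 0 members. Leaving out Fezf2 replicates 1, 2 and 4 gave 6 genes, and leaving out replicates 4 and 5 also gave 6. These last 2 settings and the use of deposited RPKM were chosen after the data were seen. With a replicate block over replicates 1 to 3 of each group, edgeR called 10 genes and 0 members. The deviations of same-numbered libraries from their group means had correlations of −0.03, −0.03 and −0.06, so the numbers were not taken to pair the samples. The estimate for Cdh2, −0.07, ran from −0.196 to 0.00853 when 1 library was left out (the latter without Fezf2 replicate 3), and turned to 0.00556 with the replicate block, to 0.0442 without Fezf2 replicates 4 and 5 and to 0.0302 with the deposited RPKM, and that for Cdh9, −0.93, turned to 0.10 without Fezf2 replicates 1, 2 and 4. The deposited RPKM moved the median log2 fold change of all genes by 0.11. In neocortex 2 members were past the threshold. With a prior count of 5, with DESeq2 size factors or with the deposited RPKM there was 1 (Cdh7), and with a minimum of 10 CPM there was 1 (Cdh11), since Cdh7 fell below that minimum. For the other changes the cause was not tested. In sorted cells 12 members had at least 20 CPM and 14 less, where counts are few.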
